A study of Mus musculus with 9 samples.

Results

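Ribosome occupancy of the actin cytoskeleton genes was described in 9 RiboSeq libraries of mouse macrophages. The set has 43 genes among the 16921 gene identifiers of the deposited table. Its members were chosen by name, as genes for actin and for the proteins that bind, turn over, nucleate, cap, crosslink or move actin filaments or link them to the membrane, and they were sorted into 9 roles. Each symbol matched 1 line of the table, and all 43 members passed the filter on low values described below, as did 10102 genes in all.

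RiboSeq sequences the short mRNA fragments that translating ribosomes protect from nuclease, so a gene's footprint number reflects both the amount of its mRNA and how many ribosomes sit on it. The cells were TTP-deficient bone marrow-derived macrophages that had been immortalized with hcmyc and hRas G12V and carried an inducible vector for GFP, GFP-TTP or GFP-TTP-AA. TTP, encoded by Zfp36, is an RNA-binding protein that binds AU-rich elements in 3′UTRs, and TTP-AA carries S52A and S178A, which remove the sites where the kinase MK2 phosphorylates it. All cells received doxycycline (1 μg/ml) for 6 h and LPS, the bacterial lipopolysaccharide that activates macrophages, at 1 μg/ml for 1 h. Each of the 3 groups had 3 libraries, described as biological replicates, and each group was its own transduced and sorted cell line, so that a difference between groups cannot be told apart from a difference between lines. The GFP line is TTP-deficient and received the same vector, doxycycline and LPS, so it is the background for both TTP lines. The comparison of the TTP lines asks how ribosome footprints during LPS stimulation differ between a line with and a line without these phosphorylation sites of TTP.

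Macrophages rebuild their actin filaments when they spread, migrate and take up particles. Monomers are held in reserve by thymosins and profilin, the Arp2/3 complex and formin- or VASP-type proteins start and lengthen filaments, capping proteins stop their growth, and cofilin and coronins help to take them apart. Crosslinkers such as filamin and α-actinin bundle filaments, non-muscle myosin II pulls on them, and talin, vinculin and the ERM proteins ezrin and moesin tie them to integrins or to the plasma membrane. Several of these genes, the actins and vinculin among them, are known targets of the serum response factor SRF, which binds CArG boxes.

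The values are not observed counts. The deposited number for each gene and library was what the authors' DESeq2 model fitted, since gene-wise terms for group and replicate number together with 1 factor per library left at most 1e-14 of the log2 values. A group difference is therefore the same in each replicate by construction, and the 3 libraries of a group differ from one another only by the library factor and by the gene's replicate term. That term is shared by all groups, so a replicate in which a gene is low in 1 group is low in every group by construction. Whether the libraries of different groups overlap below follows from the group difference and the replicate term alone. It is no measure of agreement between replicates. Per library, the sum of the fits ran from 2570290 to 12804501. Values below are these fits divided by a size factor, called scaled footprints, and a group's level is their geometric mean over its 3 libraries. Fold changes are differences of log2 levels, and their errors are the standard errors the authors deposited. The test was a two-sided Wald test with Benjamini-Hochberg adjustment over all genes with a mean of at least 10 scaled footprints, with a threshold of 0.05. The authors' model shrinks fold changes towards 0, so that they understate the change, more so where the error is large. Zfp36 had a level of 460 scaled footprints in the GFP line, against 929 in the GFP-TTP libraries and 1529 with GFP-TTP-AA. It was thus higher in both lines labelled with a TTP vector (adjusted p = 0.00485 and 2.86e-09 by the Wald test). GFP-TTP-AA also exceeded GFP-TTP for this gene, by 0.72 on the log2 scale (adjusted p = 0.0427 by the Wald test). The TTP lines therefore differed in Zfp36 footprints as well as in the phosphorylation sites. Whether this difference has a part in the results below was not tested. Per-gene values do not show which part of the gene the footprints in the GFP line come from.

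The cells carried the marks of macrophages. Of 8 macrophage markers 7 passed the filter. Of 5 T cell and 5 B cell markers, 2 each were in the table, and 0 of these passed. The 5 erythroid and mast cell markers were not in the table, so their levels cannot be given. The defining T cell and B cell markers in the table, Cd3d, Cd4, Cd79a and Ms4a1, had levels under 1 scaled footprint in every group. The summed macrophage markers lay between 85753 and 104257 scaled footprints in GFP, between 68074 and 81492 in GFP-TTP, but between 96552 and 118517 in GFP-TTP-AA. The sum was thus lower in all GFP-TTP libraries than in the libraries of the other groups. The group levels of several members below, Actb, Tmsb4x, Coro1a and Capzb among them, were also lowest in GFP-TTP. For these genes the GFP-TTP and GFP libraries overlapped, and 0 members passed the test as lower in GFP-TTP against GFP. Whether the marker sum has a part in the results of the members was not tested. Lyz2 made up most of the sum, with levels of 64160, 46111 and 71085 in the order GFP, GFP-TTP and GFP-TTP-AA. In GFP-TTP against GFP, 3 of the 7 markers passed, all lower (Emr1, Lyz2 and Fcgr1). Itgam (0.10) and Cd14 (0.11) lay above 0 there and did not pass. In GFP-TTP-AA against GFP-TTP, 3 of these 7 markers were higher and 0 lower, Emr1 (F4/80) by 1.21 and Lyz2 by 0.62 on the log2 scale. Of 6 neutrophil markers 3 were in the table, and of these Mpo and Camp did not pass the filter. S100a8, the 1 that did and a gene that macrophages can also express, had levels of 27.1, 25.7 and 55.6 scaled footprints in the order GFP, GFP-TTP and GFP-TTP-AA. Acta2, a muscle actin gene and the only fibroblast or muscle marker above the filter, had levels of 97.4, 80.5 and 120 in that order.

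The actin cytoskeleton genes took a large part of the footprints. Together they held 4.14% ± 0.32 (SD, n = 3) of the fitted footprints in GFP, 3.81% ± 0.28 (SD, n = 3) in the GFP-TTP libraries and 4.41% ± 0.36 (SD, n = 3) with GFP-TTP-AA. These SDs come from the replicate terms of the fit. The group means lay in the order of the Actb share, which was 1.38% in GFP, 1.1% in the GFP-TTP libraries and 1.53% with GFP-TTP-AA, and the ranges over libraries overlapped between groups. The other 42 members held 2.76% ± 0.14, 2.71% ± 0.15 and 2.88% ± 0.14 (SD, n = 3), and their ranges overlapped as well. Library 1 had the highest total share in each group, 4.5% in GFP, 4.13% in the GFP-TTP libraries and 4.8% with GFP-TTP-AA. The replicate terms are shared between groups, so these are not independent findings.

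Between genes, levels were compared per 1000 coding bases of the annotated principal transcript (GENCODE vM21, GRCm38). The members had a median of 2268 scaled footprints per coding kb against 148 for the 9968 kept genes with a coding length. Of the 43 members, 9 were within the first 100 genes by this level, 19 within the first 500 and 28 within the first 1000. The thymosin β4 gene Tmsb4x ranked at 2 with 83477 scaled footprints per coding kb, and the β-actin gene Actb at 4 with 71206. Tmsb10, a second β-thymosin, followed at rank 7 with 32612, and Pfn1 (profilin 1) at rank 11 with 28410. The lowest member was Arpc1a at rank 6942 with 66.9 scaled footprints per coding kb, followed by Vcl (vinculin) with 117 and Ezr (ezrin) with 155, so that the members spanned about 3 orders of magnitude.

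**Figure D1:**
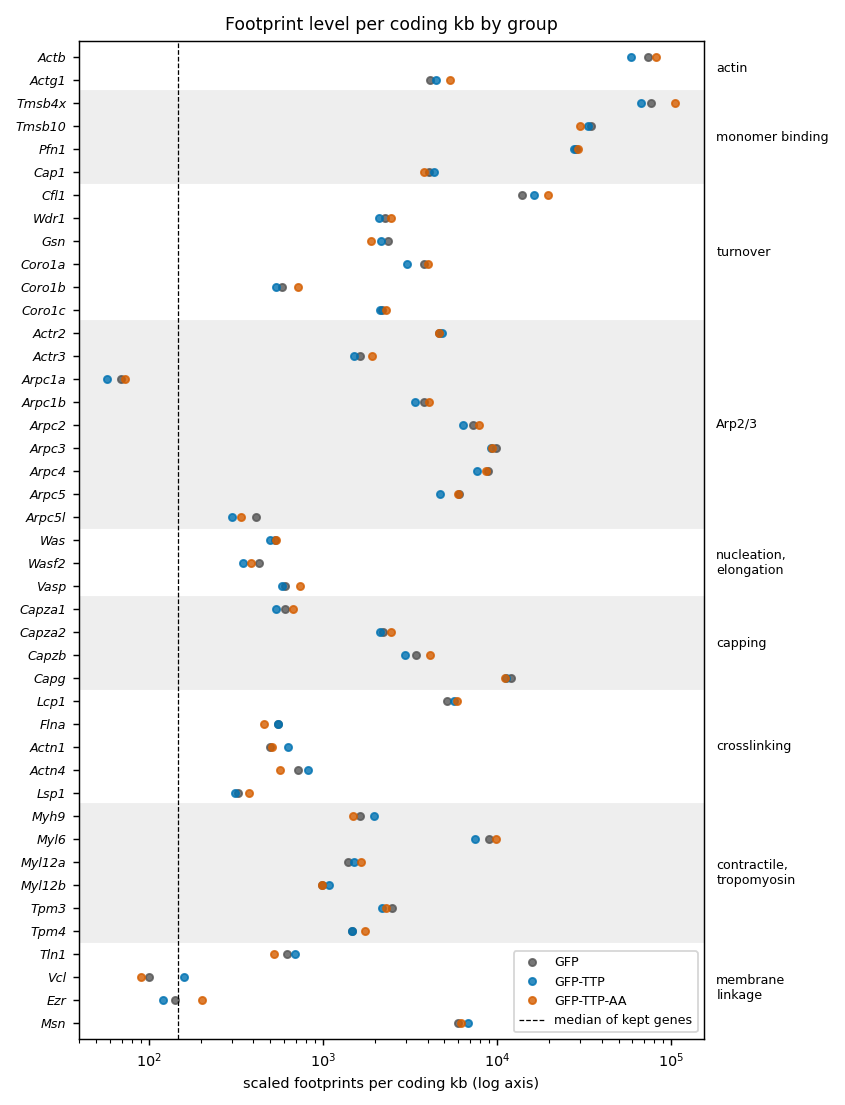
Footprint level of each of the 43 members in GFP (grey), GFP-TTP (blue) and GFP-TTP-AA (orange), as scaled footprints per coding kb on a log axis, with members grouped by role and the median of the kept genes (148) as a dashed line. Tmsb4x and Actb lie at the right, and only Arpc1a and, in some or all groups, Vcl and Ezr lie below or near the dashed line.

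Positions in the same complex were compared on this scale, summing alternative subunits. The 7 positions of the Arp2/3 complex, the branching nucleator, spanned 5.62-fold, from Actr3 with 1693 scaled footprints per coding kb to Arpc3 with 9518. Between the alternative subunits of 1 position, Arpc1b (3750) far exceeded Arpc1a (66.9), and Arpc5 (5596) exceeded Arpc5l (352). The α subunits of capping protein together (Capza1 and Capza2, 2875) and its β subunit Capzb (3508) differed by 1.22-fold, and per kb of whole transcript by 1.84-fold. For non-muscle myosin II, the heavy chain gene Myh9 had 1702, the essential light chain gene Myl6 8788, and the regulatory light chain genes Myl12a and Myl12b together 2546 scaled footprints per coding kb. Among actin and its monomer partners, the 2 actins together had 75864, the 2 thymosins 116089, Pfn1 28410, the cofilin gene Cfl1 16668 and Cap1 4075. Per kb of whole transcript the actins (44407) lay above the thymosins (20586), so that this order turned with the length used. These levels are open to the sharing of reads described next, and no replicate error can be given for a ratio between fitted levels.

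Paralogs and pseudogenes limit what a footprint on some members means, because a footprint of about 28 bases can match several genes and the authors' mapping kept up to 2 places per read. All 28-base words of the Actg1 coding sequence occur in transcripts of other annotated genes, and 49.4% of those of Actb do. The share was 100% for Tmsb10 and Myl12b, 95.9% for Myl12a, 89.9% for Myl6, 89.8% for Capza1, 74.6% for Actr3, 71.5% for Cfl1 and 70.7% for Tpm3. For Myl12b, all of these words occur in a second annotated gene entry of the same name. The share was 0% for 14 members, among them Tmsb4x, Coro1a, Capzb and Vcl. How shared reads were counted is not given in the sources used here, and values of the former genes are uncertain to that extent. The actins show the problem and the thymosins its absence within the pair. Actb and Actg1 are identical at 997 of 1125 coding bases (88.6%), with an identical run of 62 bases, and differ at 9 of the first 60 bases, shown here in capitals (GENCODE vM21, GRCm38, chr5:142905627-142905686 and chr11:120348032-120348091, both minus strand, coding strand 5′ to 3′):
Actb: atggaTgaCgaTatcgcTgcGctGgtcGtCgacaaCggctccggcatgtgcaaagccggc
Actg1: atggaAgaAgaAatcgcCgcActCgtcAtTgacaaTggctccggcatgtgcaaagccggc

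Tmsb4x and Tmsb10 are identical at 92 of 132 coding bases (69.7%), and no identical run is longer than 10 bases, so that a footprint tells them apart. Their complete coding sequences without the stop codon are shown for this reason, with differing bases in capitals (minus strands, with introns within chrX:167207504-167208036 and chr6:72957621-72958012):
Tmsb4x: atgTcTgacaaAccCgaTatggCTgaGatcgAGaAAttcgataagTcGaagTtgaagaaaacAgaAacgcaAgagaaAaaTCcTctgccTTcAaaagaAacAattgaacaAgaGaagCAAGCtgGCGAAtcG
Tmsb10: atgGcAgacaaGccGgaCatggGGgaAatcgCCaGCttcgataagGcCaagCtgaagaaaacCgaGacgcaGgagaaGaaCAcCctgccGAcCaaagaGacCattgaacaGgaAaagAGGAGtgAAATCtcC

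In GFP-TTP-AA against GFP-TTP, 9 of 43 members passed the test, 6 of them higher and 3 lower in GFP-TTP-AA. The members that were higher were Actb, Tmsb4x, Coro1a, Capzb, Myl6 and Ezr, and those that were lower were Actn4, Tln1 and Vcl. Among all 10102 genes tested, 10.3% passed, 5.39% higher and 4.9% lower. The members' share was 20.9%, and their median log2 fold change was 0.18 against a median of -0.01 over all genes tested. In GFP-TTP against GFP, 1 of 43 members passed, Vcl, which was higher in GFP-TTP, against 2.09% of 9938 genes in both directions and 0.805% higher. The median of the members was -0.09 against 0.00 over all genes tested. In GFP-TTP-AA against GFP, Tmsb4x and Cfl1 passed, both higher in GFP-TTP-AA, against 3.11% of 10102 genes in both directions and 1.7% higher. Here the members' median was 0.06. Each pair of these comparisons shares the libraries of 1 group, so their values are not independent. In these bulk samples fewer cells of a type, less mRNA per cell and fewer ribosomes per mRNA cannot be told apart.

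**Figure D2:**
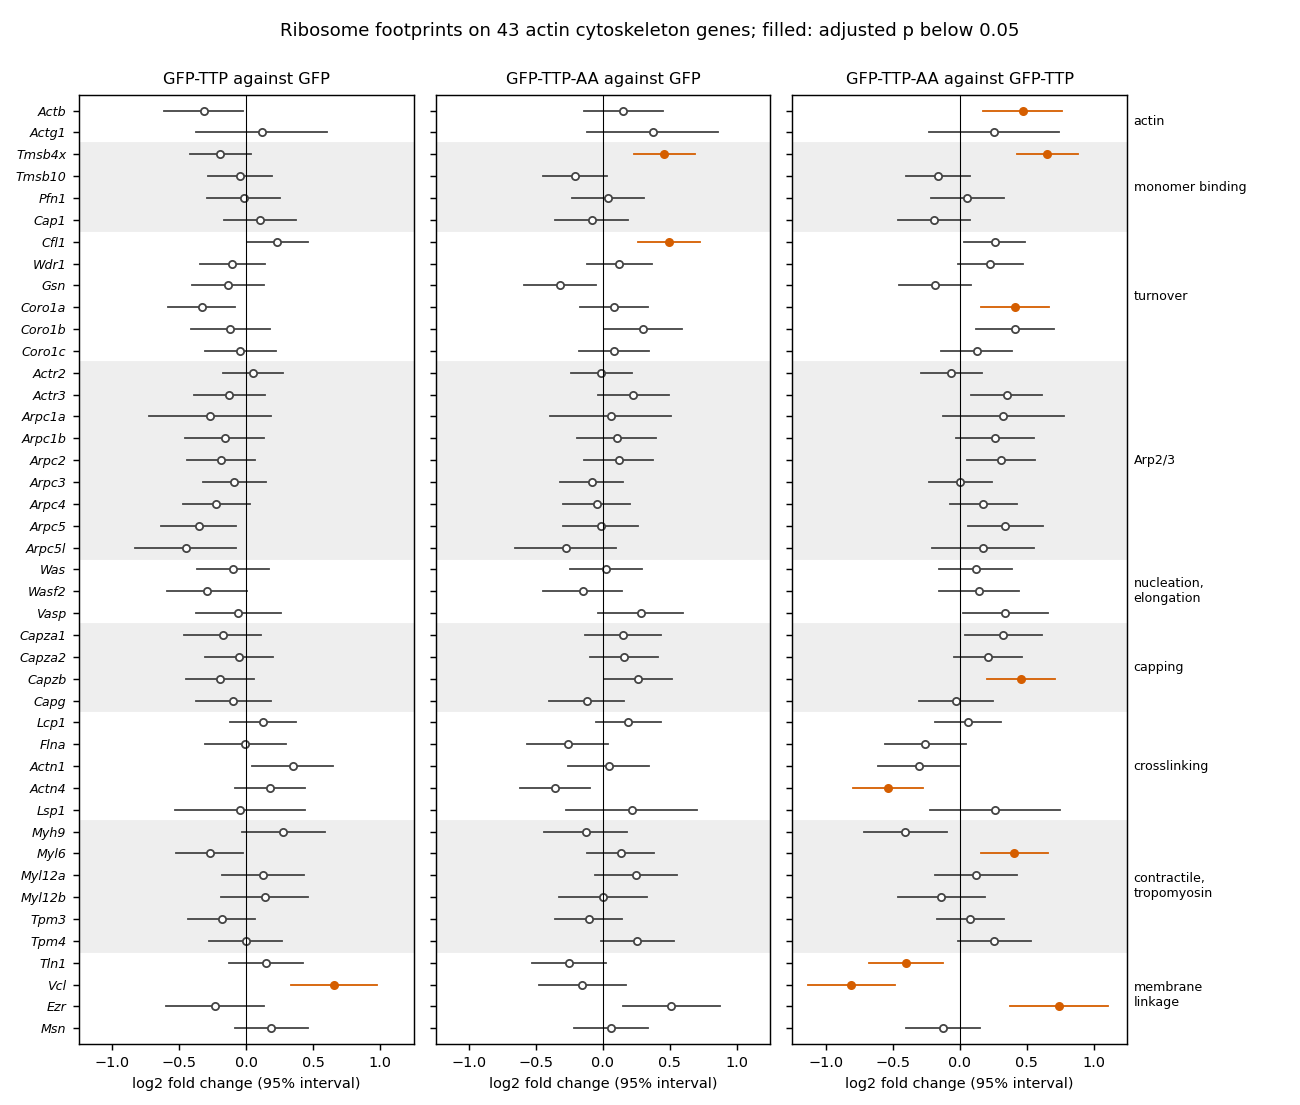
Log2 fold change of each of the 43 members with its 95% interval (from the authors' standard error) in the 3 comparisons, grouped by role, with filled orange points for an adjusted p below 0.05. The right panel holds 9 filled points, with Vcl, Actn4 and Tln1 to the left of 0 and the other 6 to the right, while the left panel holds 1 (Vcl) and the middle panel 2 (Tmsb4x and Cfl1).

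Of the actins, Actb rose and Actg1 did not pass the test. Actb (chr5:142903115-142906754, minus strand) had 95792, 67903 and 86336 scaled footprints in GFP libraries 1, 2 and 3, then 76770, 54500 and 69210 in GFP-TTP, and 107038, 75188 and 95685 in GFP-TTP-AA. Library 2 was the lowest of each group, so that the ranges of the groups overlapped. That each GFP-TTP-AA library lay above the GFP-TTP library of the same number follows from the fit by construction. The level was 1.39-fold higher in GFP-TTP-AA than in GFP-TTP, with a log2 fold change of 0.47 ± 0.15 (SE) and an adjusted p of 0.0223 by the Wald test. Against GFP, the Actb values were -0.32 in GFP-TTP (adjusted p = 0.373 by the Wald test) and 0.15 in GFP-TTP-AA (0.742). Actg1, the cytoplasmic γ-actin gene, had log2 fold changes between 0.11 and 0.37 in the 3 comparisons, with an SE of 0.25, the largest of any member.

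Among the genes that hold monomers, Tmsb4x rose in GFP-TTP-AA against both other groups. Thymosin β4 keeps actin monomers from polymerising. Tmsb4x (chrX:167207093-167209315, minus strand) had 11815, 9600 and 9294 scaled footprints in the GFP libraries, 10311, 8391 and 8113 in GFP-TTP, and 16338, 13155 and 12746 in GFP-TTP-AA. All GFP-TTP-AA libraries lay above all libraries of the other groups. The log2 fold change was 0.65 ± 0.12 (SE) against GFP-TTP, a 1.57-fold difference (adjusted p = 1.5e-06 by the Wald test), and 0.46 ± 0.12 (SE) against GFP (adjusted p = 0.00567). With the median of its length class subtracted, the difference from GFP no longer passed (0.36, adjusted p = 0.0538 by the Wald test). Tmsb10 had log2 fold changes of -0.16 and -0.21 in these comparisons and did not pass in either (adjusted p = 0.468 and 0.455 by the Wald test). Pfn1, which delivers monomers to growing ends, had 12566, 11914 and 11196 scaled footprints in GFP, 12388, 11763 and 11040 in GFP-TTP, and 12981, 12196 and 11471 in GFP-TTP-AA. Its ranges overlapped between all groups, and its log2 fold change in GFP-TTP-AA against GFP-TTP was 0.06, with a 95% interval from -0.21 to 0.33. Cap1, which recharges monomers released by cofilin, had -0.19 in that comparison (adjusted p = 0.446 by the Wald test).

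Among the 6 genes for filament turnover, Cfl1 rose in GFP-TTP-AA against GFP, and Coro1a rose in GFP-TTP-AA against GFP-TTP. Cofilin 1 severs and disassembles filaments. Cfl1 (chr19:5490455-5495201, plus strand) had 7175, 6759 and 6927 scaled footprints in GFP, 8426, 7949 and 8137 in GFP-TTP, and 10156, 9481 and 9725 in GFP-TTP-AA, and the 3 groups did not overlap. Its log2 fold change in GFP-TTP-AA against GFP was 0.49 ± 0.12 (SE), a 1.41-fold difference (adjusted p = 0.0027 by the Wald test), while those of GFP-TTP against GFP (0.23) and of GFP-TTP-AA against GFP-TTP (0.26) did not pass. Chromosome 19 as a whole had medians of 0.17 and -0.10 in these comparisons, and with them subtracted Cfl1 had 0.06 in the former and passed in the latter (0.36, adjusted p = 0.0309 by the Wald test). Coronin 1A is the coronin of blood cells. Coro1a (chr7:126699773-126707787, minus strand) had 6184, 4727 and 5076 scaled footprints in GFP, 4906, 3756 and 4028 in GFP-TTP, and 6579, 4984 and 5356 in GFP-TTP-AA. Every GFP-TTP-AA library lay above every GFP-TTP library, by 1.33-fold in level (log2 fold change 0.41 ± 0.13 (SE), adjusted p = 0.0182 by the Wald test). Coro1b had the same log2 fold change of 0.41 with an adjusted p of 0.0509 by the Wald test, just outside the threshold. Wdr1, a cofilin partner, Gsn, the calcium-dependent severing protein gelsolin, and Coro1c had 0.23, -0.18 and 0.13 and did not pass.

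In the Arp2/3 complex, 0 of 9 genes passed the Wald test in any comparison. In GFP-TTP-AA against GFP-TTP, 8 of 9 had a log2 fold change above 0, from -0.06 for Actr2 to 0.35 for Actr3, with a median of 0.26, and 3 had an unadjusted p under 0.05, as did 2243 of the 10102 genes tested. The lowest adjusted p was that of Actr3 (0.0739). In GFP-TTP against GFP, 8 of 9 were below 0, with a median of -0.19 and a lowest value of -0.45 for Arpc5l, and 2 had an unadjusted p under 0.05, as did 1124 of the 9938 genes tested. In GFP-TTP-AA against GFP the median was -0.01, and 0 had an unadjusted p under 0.05, against 1431 of the 10102 genes tested. The first 2 of these comparisons share the GFP-TTP libraries. Arpc3, the member with the highest level per coding kb in the complex, had 5204, 5194 and 5478 scaled footprints in GFP, 4888, 4886 and 5147 in GFP-TTP, and 4932, 4878 and 5149 in GFP-TTP-AA. Its log2 fold change between the TTP lines was 0.00, with a 95% interval from -0.23 to 0.24. The complex as a whole held 0.517% ± 0.025 (SD, n = 3) of the footprints in GFP, 0.465% ± 0.023 (SD, n = 3) in the GFP-TTP libraries and 0.526% ± 0.024 (SD, n = 3) with GFP-TTP-AA.

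Of the 3 genes for nucleation and elongation, 0 passed the Wald test in any comparison, and 1, Vasp, had an unadjusted p under 0.05 in GFP-TTP-AA against GFP-TTP. Was and Wasf2 encode activators of Arp2/3, and Vasp a protein that lengthens filaments. Vasp had 614, 688 and 680 scaled footprints in GFP-TTP and 783, 868 and 860 in GFP-TTP-AA, ranges that did not overlap, with 640, 716 and 709 in GFP. Its log2 fold change between the TTP lines was 0.34 (adjusted p = 0.185 by the Wald test), against 0.14 for Wasf2 and 0.12 for Was.

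Of the 4 capping genes, Capzb rose in GFP-TTP-AA against GFP-TTP. It encodes the β subunit of the protein that closes the fast-growing filament end. Capzb (chr4:139192899-139291818, plus strand) had 2803, 2622 and 3142 scaled footprints in GFP, 2442, 2288 and 2739 in GFP-TTP, and 3379, 3133 and 3758 in GFP-TTP-AA. The GFP-TTP-AA libraries lay above all GFP-TTP libraries and overlapped with GFP at the lower end. The level was 1.38-fold that of GFP-TTP (log2 fold change 0.46 ± 0.13 (SE), adjusted p = 0.00713 by the Wald test). Its partners Capza1 and Capza2 had 0.33 and 0.21 and did not pass. Capg, a macrophage capping protein related to gelsolin and the gene of this role with the highest level per coding kb, had 12542, 14276 and 11359 scaled footprints in GFP, 11727, 13369 and 10624 in GFP-TTP, and 11590, 13074 and 10412 in GFP-TTP-AA. Its groups overlapped, with a log2 fold change of -0.03 between the TTP lines and a 95% interval from -0.30 to 0.25.

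Of the 5 crosslinking genes, Actn4 was lower in GFP-TTP-AA than in GFP-TTP. It encodes α-actinin 4, a non-muscle bundling protein. Actn4 (chr7:28893248-28962340, minus strand) had 2070, 2548 and 1483 scaled footprints in GFP, 2341, 2886 and 1677 in GFP-TTP, and 1625, 1982 and 1154 in GFP-TTP-AA. Library 3 was the lowest of each group and the ranges overlapped. That each GFP-TTP-AA library lay below the GFP-TTP library of the same number again follows from the fit. The log2 fold change was -0.54 ± 0.13 (SE), a level 0.69-fold that of GFP-TTP (adjusted p = 0.00178 by the Wald test). Actn1, the other non-muscle α-actinin gene, had -0.30 and Flna (filamin A) -0.26, and neither passed (adjusted p = 0.221 and 0.329 by the Wald test). Lcp1 (L-plastin, the plastin of blood cells) had the highest level per coding kb of the role, with 10229, 9561 and 9473 scaled footprints in GFP, 11152, 10439 and 10330 in GFP-TTP, and 11723, 10859 and 10768 in GFP-TTP-AA. It did not pass in any comparison, and its log2 fold change between the TTP lines was 0.06. Lsp1, a leukocyte actin-binding protein, had 0.26 with an SE of 0.25.

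Of the 6 genes for myosin II and tropomyosin, Myl6 rose in GFP-TTP-AA against GFP-TTP. Myl6 (chr10:128490860-128494145, minus strand) had 4031, 5888 and 2872 scaled footprints in GFP, 3331, 4873 and 2374 in GFP-TTP, and 4447, 6437 and 3142 in GFP-TTP-AA. The log2 fold change was 0.41 ± 0.13 (SE), a 1.33-fold difference (adjusted p = 0.0187 by the Wald test), but the libraries of each group ranged over about 2-fold, with library 2 the highest and library 3 the lowest, and the groups overlapped. Of all members it had the widest replicate term, at 1.04 on the log2 scale. It shares 89.9% of its coding 28-base words with other genes. Chromosome 10 as a whole had a median log2 fold change of 0.16 over 482 genes in this comparison, and with that median subtracted Myl6 no longer passed (0.24, adjusted p = 0.256 by the Wald test). The heavy chain gene Myh9 had -0.40 (adjusted p = 0.0818 by the Wald test) between the TTP lines, and the light chain genes Myl12a and Myl12b had 0.12 and -0.14. The tropomyosin genes Tpm3 and Tpm4, whose products coat filaments, had 0.08 and 0.26.

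The 4 genes for membrane linkage held the members with the largest changes in both directions in GFP-TTP-AA against GFP-TTP, Vcl lower and Ezr higher. Vinculin strengthens integrin adhesions by binding talin and actin. Vcl (chr14:20929398-21033676, plus strand) had 329, 314 and 328 scaled footprints in GFP, 518, 495 and 516 in GFP-TTP, and 297, 281 and 294 in GFP-TTP-AA. All GFP-TTP libraries lay above all others. The GFP and GFP-TTP-AA libraries did not overlap either, although that difference did not pass. The log2 fold change was 0.66 ± 0.16 (SE) in GFP-TTP against GFP, a 1.58-fold difference (adjusted p = 0.00606 by the Wald test), and -0.81 ± 0.16 (SE) in GFP-TTP-AA against GFP-TTP, a level 0.571-fold as high (adjusted p = 5.21e-05). In GFP-TTP-AA against GFP it was -0.15 (adjusted p = 0.78 by the Wald test). It was the only member to pass in GFP-TTP against GFP, and its replicate term spanned no more than 0.07 on the log2 scale.

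Ezrin links filaments to the plasma membrane. Ezr (chr17:6738041-6782784, minus strand) had 232, 216 and 307 scaled footprints in GFP, 197, 184 and 261 in GFP-TTP, and 333, 307 and 436 in GFP-TTP-AA. Every GFP-TTP-AA library lay above every GFP-TTP library. The log2 fold change between them was 0.74 ± 0.19 (SE), a 1.68-fold difference (adjusted p = 0.00181 by the Wald test), while it was 0.51 in GFP-TTP-AA against GFP (adjusted p = 0.113). The related moesin gene Msn, at 6351 scaled footprints per coding kb against 155 for Ezr, had 10682, 11703 and 8914 scaled footprints in GFP, 12146, 13328 and 10139 in GFP-TTP, and 11208, 12168 and 9277 in GFP-TTP-AA. Its groups overlapped, and its log2 fold change between the TTP lines was -0.13, with a 95% interval from -0.40 to 0.15.

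Talin 1 activates integrins and is the partner of vinculin. Tln1 (chr4:43531519-43562691, minus strand) had 5535, 5402 and 3668 scaled footprints in GFP, 6116, 5979 and 4054 in GFP-TTP, and 4673, 4520 and 3072 in GFP-TTP-AA. Library 3 was low in each group and the ranges overlapped. The log2 fold change between the TTP lines was -0.40 ± 0.14 (SE), with an adjusted p of 0.0478 by the Wald test, just inside the threshold. It passed the threshold no longer with the median of all kept genes set to 0 (adjusted p = 0.0518), and no longer after correction for coding length (0.36).

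**Figure D3:**
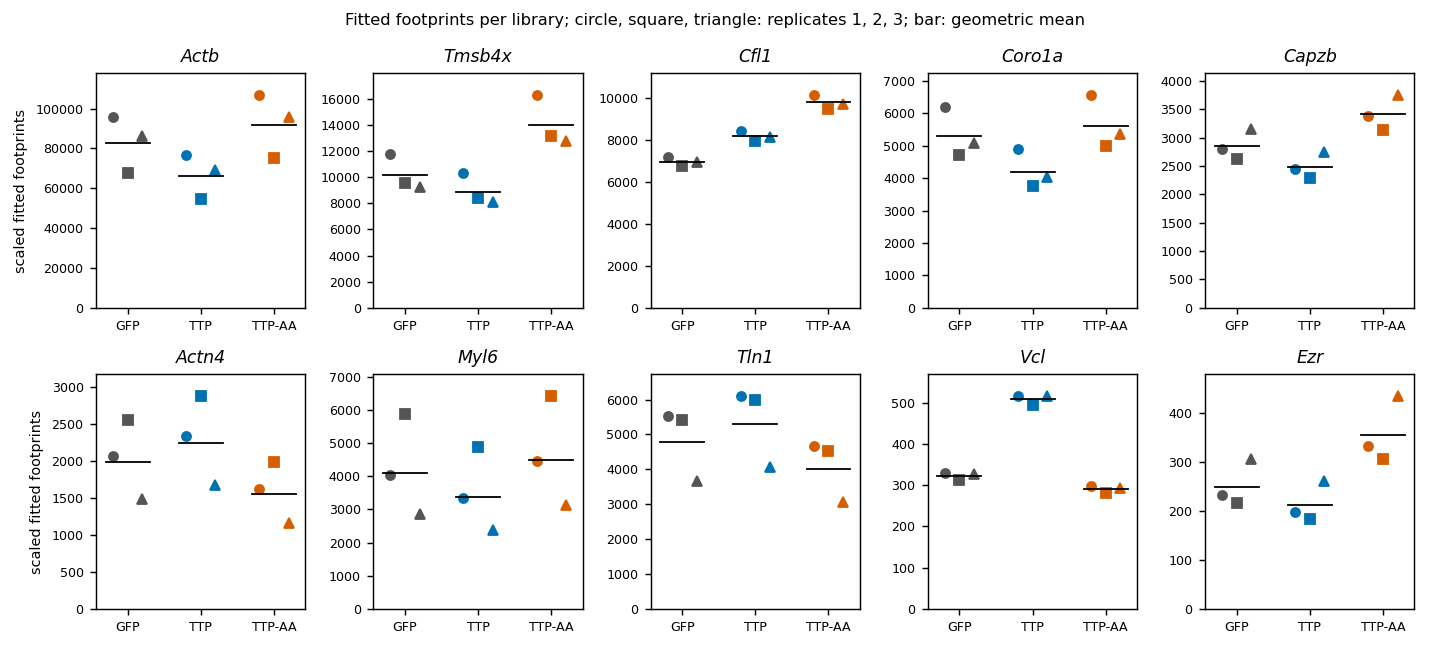
Scaled fitted footprints of the 10 members that passed the test in at least 1 comparison, in each of the 9 libraries, on axes that start at 0 (circle, square and triangle for replicates 1, 2 and 3; the bar is the geometric mean of the group). Vcl stands at 495 to 518 in GFP-TTP and at 281 to 329 in all other libraries, Tmsb4x is highest in the 3 GFP-TTP-AA libraries, and in Myl6, Tln1 and Actn4 library 3 is the lowest of each group.

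The direction of the members differed with coding length, a pattern noticed after the values were seen. All 7 members of at least 2000 coding bases (Gsn, Flna, Actn1, Actn4, Myh9, Tln1 and Vcl) had a log2 fold change below 0 in GFP-TTP-AA against GFP-TTP, with a median of -0.40, and 3 of them passed. Of the 36 shorter members 30 were above 0, with a median of 0.24, and 6 passed, all higher. The kept genes as a whole showed a shift of the same sign and smaller size. The median of the 2896 kept genes of at least 2000 coding bases was -0.10, with 1863 of them below 0, and that of the 7072 shorter genes was 0.04, with 3866 of the latter above 0. Of the long kept genes 13% passed and of the shorter ones 9.3%. Over 10 length classes the median fell from 0.13 in the shortest to -0.17 in the longest. In GFP-TTP against GFP the 7 long members had a median of 0.18 and the 36 short ones -0.10, against 0.05 and -0.02 for all genes of these lengths. Across the 43 members the Spearman correlation between coding length and log2 fold change was -0.41 in GFP-TTP-AA against GFP-TTP, and across 9968 kept genes -0.25. Genes are not independent replicates, and the members share libraries and size factors, so these are descriptions.

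With the median of its length class subtracted, an alternative added after the data were seen, 7 of the 9 members still passed in GFP-TTP-AA against GFP-TTP. They were Vcl (-0.74, adjusted p = 0.000372 by the Wald test), Tmsb4x (0.52, 0.000311), Ezr (0.79, 0.000952), Actn4 (-0.46, 0.0111), Coro1a (0.42, 0.0203), Capzb (0.41, 0.0246) and Actb (0.44, 0.0416). Tln1 and Myl6 (0.28, adjusted p = 0.179) no longer passed. In GFP-TTP-AA against GFP, Cfl1 still passed (0.40, adjusted p = 0.0305 by the Wald test) and Tmsb4x did not. Of the 7 long members, 6 had their lowest replicate term in replicate 3, and Vcl (0.03, -0.05 and 0.02 on the log2 scale in replicates 1, 2 and 3) did not. Flna (0.37, 0.14 and -0.51), Myh9 (0.32, 0.10 and -0.42) and Tln1 (0.21, 0.17 and -0.39) were lowest in replicate 3, by a term that the fit shares between the groups. Over all members the replicate term spanned a median of 0.33, against 0.29 over all kept genes. What the length shift between groups comes from was not tested.

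**Figure D4:**
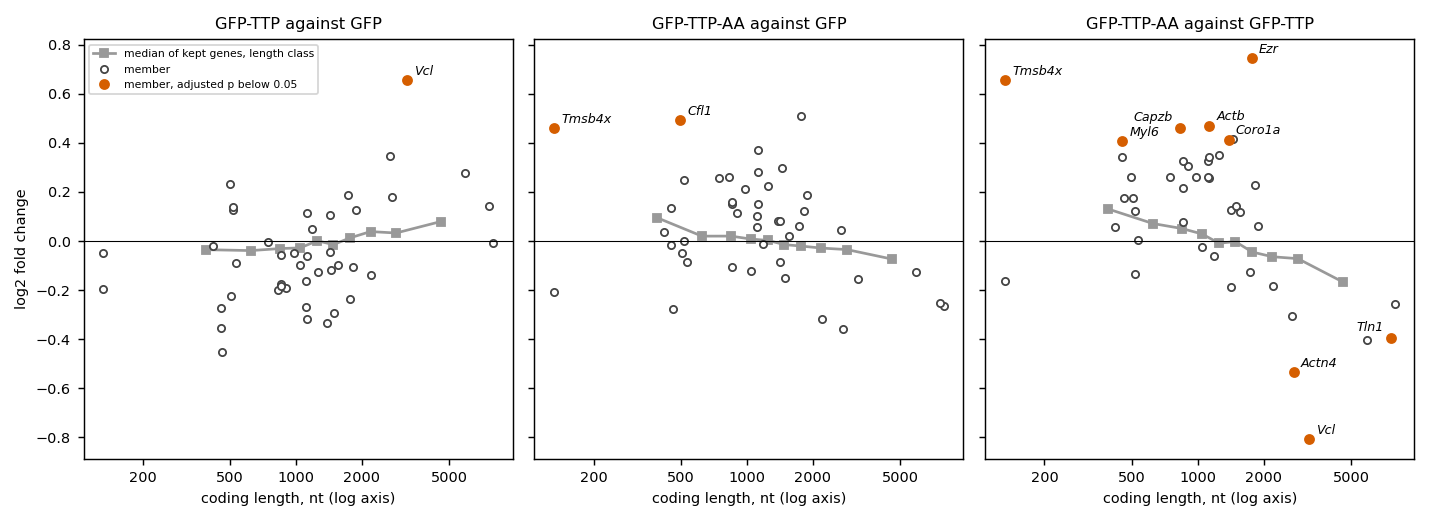
Log2 fold change of the 43 members against coding length (nt, log axis) in the 3 comparisons, with members that passed the test in orange and the median of all kept genes in each of 10 length classes as grey squares. In the right panel the grey medians fall from 0.13 to -0.17 and the 7 longest members, down to -0.81 for Vcl, all lie below 0.

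Other genes of the same processes were counted from lists by function, which were drawn up with earlier results of these data known. Of 37 further actin-binding genes, 7 were higher and 4 lower between the TTP lines, a share of 29.7% against 10.3% of all genes tested and 20.9% of the members. These shares were not tested against each other. Among them were Evl, of the Ena/VASP family (1.94), and Svil, supervillin (-0.94). Evl passed in all 3 comparisons, with -0.96 in GFP-TTP against GFP and 0.97 in GFP-TTP-AA against GFP. Dstn, the cofilin relative destrin, had 0.62 and Marcks, a membrane-bound actin crosslinker, 0.71 in GFP-TTP-AA against GFP, and both passed. Of 19 adhesion genes, 3 were higher and 1 lower between the TTP lines, a share of 21.1%, with Itgal (0.66), Itga4 (-0.59) and Lims1 (0.42) the largest. The integrin chain gene Itgb2 had -0.06 and did not pass.

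SRF targets outside the set and genes of the other filament systems were counted in the same way. Of 6 such SRF targets above the filter, 0 passed the Wald test in any comparison, with 1 at an unadjusted p under 0.05 between the TTP lines, and their median there was 0.04. Srf itself had a log2 fold change of -0.04. Of 15 tubulin and intermediate filament genes, 2 were higher between the TTP lines, Tubb2a, a β-tubulin (1.74), and Stmn1, the tubulin-binding stathmin (0.51). Tubb2a was also lower in GFP-TTP than in GFP (-1.53). These shares, 0 of 6 and 2 of 15, stand beside 9 of 43 for the members and 10.3% of all genes, and no test of the difference was made.

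In the promoters, which RefSeq gives as 250 bases before to 50 after each start (GRCm38.p6), 39 members were matched by symbol with 47 windows. Actb, Arpc5l, Coro1b and Lsp1 had no entry. A CArG box, whose consensus matches equally on both strands, was found in 4 of the 47 windows (8.51%) and in 1.63% of all 32851 windows. The members were Vcl, lower in GFP-TTP-AA than in GFP-TTP, Myl6, higher, and Actg1 and Arpc4, which did not pass. The windows with a box thus belonged to members of both directions. The stretch shown for Myl6 lies inside its annotated gene and so belongs to an inner start, while the others lie upstream of their genes. The boxes are shown in capitals within their windows, on the strand of the gene, from chr14:20929156-20929195 (plus), chr10:128493035-128493074 (minus), chr11:120348561-120348600 (minus) and chr6:113377863-113377887 (plus):
Vcl: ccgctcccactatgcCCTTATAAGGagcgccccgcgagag
Myl6: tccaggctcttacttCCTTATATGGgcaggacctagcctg
Actg1: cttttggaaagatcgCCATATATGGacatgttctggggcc
Arpc4: CCTAATTTGGtgcccaacctgaggt

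In the annotated 3′UTRs, ATTTA, the core of AU-rich elements, was found on the transcript strand, with overlapping matches counted, in 25 of the 43 members (58.1%) and in 68.1% of 9893 kept genes with a 3′UTR. TATTTAT, the longer form that TTP is known to prefer and that contains ATTTA, was found in 8 members (18.6%) and in 28.7% of the kept genes. Of the 25 members with ATTTA, 6 passed in GFP-TTP-AA against GFP-TTP (24%), 3 higher and 3 lower. Of the 18 without it 3 passed (16.7%), all higher (Tmsb4x, Coro1a and Myl6). Of all genes tested 10.3% passed. The shares among all genes with and without ATTTA were not counted, so no difference by motif is read from these numbers. Vcl holds 5 matches, Ezr and Actn4 3 each, Cfl1 2, and Actb, Capzb and Tln1 1 each. For the members that passed, 1 match each is shown with its surroundings and with ATTTA in capitals, and in Vcl and Ezr the one that extends to TATTTAT. The windows, on GRCm38 and in the order below, are chr14:21033039-21033065 (plus), chr17:6738701-6738727 (minus), chr7:28893560-28893586 (minus), chr19:5494721-5494747 (plus), chr5:142903597-142903623 (minus), chr4:139291340-139291366 (plus) and chr4:43531931-43531957 (minus):
Vcl: gtatggtatctATTTAtcagaaaggca
Ezr: tagaggatagtATTTAtatataagcga
Actn4: agagaattactATTTActttattaact
Cfl1: actttaatgttATTTAgatctgtaagg
Actb: tttgactcaggATTTAaaaactggaac
Capzb: ttcccttgcccATTTAtaggcacagat
Tln1: aagccctgtgtATTTAatgcagaccca

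The match is to letters of the annotation only, and binding of TTP to these windows was not analysed here. Vcl and Ezr, the members with TATTTAT that passed, had log2 fold changes of opposite sign between the TTP lines, -0.81 and 0.74. The other 6 members with TATTTAT, Actr2, Capza2, Myl12a, Myl12b, Tpm4 and Wasf2, had values from -0.14 to 0.26 and did not pass.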

How the data were processed

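Per the labels and methods, the authors made footprint libraries with an ARTseq kit after rRNA depletion, mapped reads to mm10 with TopHat2 (2.0.12 in the submitters' processing notes) keeping up to 2 alignments per read, counted them per gene (the notes name HTSeq) and fitted them with DESeq2 1.6.3, with terms for library date and condition. The deposited table, named as normalized counts, was handled as a signal, the fitted value per gene and library. It holds 16932 lines for 16921 identifiers. From the authors' comparison tables only the standard error, on the log2 scale, was used. Their means, fold changes, Wald statistics and p-values were neither used nor compared. RNASeq and iCLIP were not analysed here. Some list genes are not reported here.

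Size factors (0.416 to 2.14) were medians of ratios over all genes. The plan had been to recover the authors' own factors, but fitted values leave those undetermined, so this scaling was chosen after seeing the data. The test was own log2 fold change over the authors' standard error, a Wald test, adjusted with Benjamini-Hochberg over genes with a scaled mean of at least 10. It was checked on simulated data. Depth enters only through these errors. Coding length, 3′UTRs and 28-base words came from GENCODE vM21 and promoters from RefSeq. Named genes were Actb, Tmsb4x, Pfn1, members past the threshold of 0.05, the highest member per coding kb of each role, and at most 3 per other list and comparison. Values of further members, markers and list genes were added after they had been seen. Members and lists were chosen with earlier results of these data known. Alternatives were other scalings, filters, adjustments and pseudocounts, and medians by chromosome or length class. Scripts ran in Python 3.11.15 with numpy 2.4.6, scipy 1.17.1, pandas 2.3.3 and matplotlib 3.10.9.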

Additional observations from a re-analysis of the deposited data

How the results depend on the processing

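No paired analysis was possible because the deposited values are fitted and hold no spread between replicates to refit with or without a term for the replicate number. The standard errors come from the authors' fit, which had a term for library date, and leaving out a replicate could not be run. In GFP-TTP against GFP the count of members past the threshold was 1 under each alternative run. In GFP-TTP-AA against GFP it was 2, except with the median of the length class subtracted, where it was 1 (Cfl1). In GFP-TTP-AA against GFP-TTP it lay between 7 and 10. The settings that changed which members passed there were scaling by library sums or setting the median of kept genes to 0 (Coro1b gained, Tln1 lost), the chromosome median (Cfl1 and Coro1b gained, Myl6 lost), a minimum mean of 50 (Coro1b gained), adjustment over the 3 comparisons together (Tln1 lost) and the length class (Myl6 and Tln1 lost). Subtracting the median of the length class turned the sign of values near 0, namely Pfn1 to 0.0155 in GFP-TTP against GFP, to -0.0571 in GFP-TTP-AA against GFP and to -0.073 in GFP-TTP-AA against GFP-TTP, and Arpc3 to -0.0676 in the last. Per kb of whole transcript, the highest over the lowest position was 1.84 for capping protein and 9.18 for myosin II, and the cause was not tested. The actins then lay above the thymosins, the reverse of their order per coding kb. Of the values of the 16 named members under the alternatives with a test, 228 kept direction and side of the threshold, 7 lost the call, 1 gained it and 4 changed sign. A pseudocount of 10, which has no test, kept the direction of all 48 values. Depth limits the results only through the deposited standard errors.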
